A study of Zea mays with 6 samples.

Results

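The transcripts of 107 maize genes were higher under drought than in control in leaf and lower in stem. They were chosen by fold change among the 109715 genes listed. The change in a tissue was taken as log2((drought FPKM + 1)/(control FPKM + 1)), and a gene was kept when it was at most -1 in stem and at least 1 in leaf. FPKM counts the sequenced fragments of a gene relative to the length of its transcript and to the fragments mapped in the library. A gene also had to be above 0 FPKM in the 4 leaf and stem libraries and to reach 10 FPKM in the higher library of each of these tissues. That filter left 10850 genes, so the 107 made up 0.986% of them. Below, "rose" and "fell" mean a change of at least 2-fold on this scale, and a plain fold is the ratio of the FPKM values themselves.

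All plants were ZD619, a widely grown maize hybrid with strong drought resistance in the field, labelled as wild type at the 2-3 leaf stage. The study gives later stages as well, so the age at harvest is not settled. Relative soil water content was 80% for control plants, and for drought plants, left dry once they were 3 weeks old, it came to 35%. Leaf, stem and root were sequenced under each condition, giving 6 libraries with 1 library per tissue and treatment, each from RNA of 4 plants. No value therefore has an error between replicates, no test was possible, and differences between plants cannot be told apart from the treatment. The 3 tissues lie in separate tables, and changes were computed within a table.

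The FPKM of a library summed to between 544251 and 908668, and between 37881 and 40428 genes were above 0. These tables hold no read counts, so no counting interval is given. In root drought a single gene, GRMZM2G581850, took 9.55% of the sum. The median change of the 10850 genes was -0.13 in leaf, 0.09 in stem and 0.31 in root. The tissue labels were set beside marker genes. The 21 genes of photosystems, light harvesting and C4 photosynthesis, taken by symbol, had a median of 948 FPKM in leaf control and 307 in leaf drought, of 851 in stem control and 1151 in stem drought, and of 1.42 in root control. Their median was thus nearly as high in control stem as in control leaf, and lower in leaf drought, where the 107 genes rose. Single genes differed between control leaf and stem, with pep1 at 3735 and 851 FPKM and lhcb3 at 523 and 3517. The symbols also took in psat1, at 47.9 FPKM in root control. The part of these genes in the results was not tested. All 6 class I KNOX genes, which mark the shoot meristem and young stem, were below 1 FPKM in both stem libraries, and kn1 was listed at 0 in all 6 libraries. Their sum was 32.4 FPKM in root control and 26.7 in root drought. The 4 root marker genes, taken by symbol, had a median of 0 FPKM in each leaf and stem library. In root their median was 4.63 FPKM in control and 11.8 in drought. One of them, rth3, was also found in the shoot, at up to 10.2 FPKM in leaf drought. Which piece of the shoot was taken as stem is not given in the sources used here, so "stem" stands for the label alone. None of these markers was among the 107 genes. In RNA of whole organs, fewer cells of a type and less RNA per cell cannot be told apart.

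When soil dries, a leaf closes its stomata and fixes less carbon, while stem and root depend on the sugar that leaves export. Sucrose synthase opens the sucrose that arrives to further use, and alpha-galactosidases free galactose from raffinose-type sugars. Stress signals pass through mitogen-activated protein kinase (MAPK) cascades, in which a MAPKKK activates a MAPK kinase (MKK) and this in turn activates a MAPK (MPK), and through transcription factors of families such as NAC, bZIP and homeobox.

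In leaf, 612 of the 10850 genes rose (5.64%) and 895 fell (8.25%). In stem, 964 rose (8.88%) and 818 fell (7.54%). The 107 genes were 17.5% of the leaf rises and 13.1% of the stem falls. The rule fixes both directions, so their leaf and stem values are given as a description. In leaf control they ranged from 0.590 to 1610.0 FPKM with a median of 10.7, and in leaf drought from 10.1 to 3985.6 with a median of 45.6. In stem control they ranged from 10.01 to 1197 FPKM with a median of 23.4, and in stem drought from 0.145 to 383 with a median of 6.77. The median change was 1.63 in leaf and -1.52 in stem. Changes of at least 4-fold on the log2 scale with 1 FPKM added were reached by 33 genes in leaf, by 28 in stem and by 11 in both tissues. The leaf change was the larger in 57 genes and the stem change in 50.

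**Figure D1:**
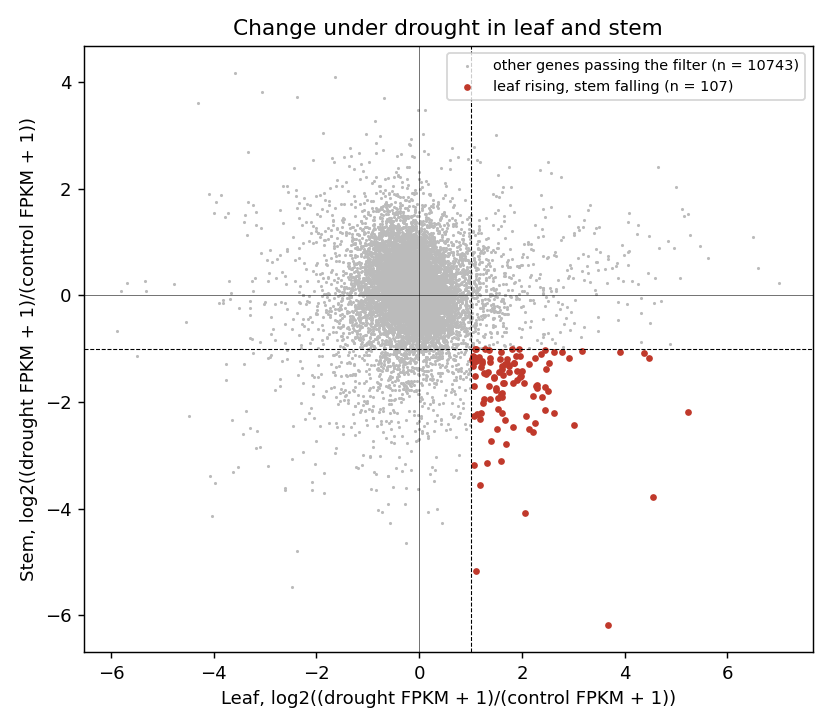
Change under drought in leaf (x axis) and stem (y axis), each as log2((drought FPKM + 1)/(control FPKM + 1)), for the 10850 genes passing the filter, with 1 point per gene and dashed lines at 1 and -1. The 107 red genes fill the corner of leaf rises and stem falls, most of them close to the dashed lines, and 1 gene reaches -6.18 in stem.

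The limits cut through a continuous range of values. The genes just inside in stem were GRMZM2G147882, GRMZM2G086179 and GRMZM2G134396, with changes of -1.002, -1.005 and -1.006. Just outside were GRMZM2G027769, GRMZM2G071959 and GRMZM2G109405, with -0.99, -0.98 and -0.98. In leaf, GRMZM2G046498, GRMZM2G110423 and GRMZM5G846152 were just inside with 1.02, 1.05 and 1.05, and GRMZM2G019335, GRMZM2G113158 and GRMZM2G063276 just outside with 0.99, 0.98 and 0.98. At the limit of 10 FPKM, GRMZM2G014653 entered with 10.01 FPKM in stem control and GRMZM2G009792 was left out with 9.97.

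The genes were ranked by the smaller of their leaf and stem changes. First came GRMZM2G018820, which went from 3.35 FPKM in leaf control to 101 in leaf drought (30.1-fold) and from 233 FPKM in stem control to 16.1 in stem drought (14.5-fold lower). Well-watered stem thus held far more of this transcript than well-watered leaf, and droughted leaf more than droughted stem. In root it was at 109 FPKM in control and 239 in drought.

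GRMZM2G142891 was second and had the deepest fall in stem of all 107 genes on the log2 scale with 1 FPKM added. By plain ratio GRMZM2G456997 fell further, from 12.5 to 0.145 FPKM (86.6-fold), at values where the ratio rests on a very low level. GRMZM2G142891 went in leaf from 189.6 to 2445 FPKM, in stem from 1197 to 15.5 (77.2-fold lower) and in root from 14.3 to 32.5. It was the top gene of the group in stem control and the second in leaf drought. Neither of these genes has a name in the reference.

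AGA1 (GRMZM2G340656), an alkaline alpha-galactosidase that removes galactose from raffinose-type sugars, had the largest rise in leaf on the log2 scale with 1 FPKM added. By plain ratio GRMZM2G146614 rose more, from 0.590 to 32.04 FPKM (54.3-fold). AGA1 was at 58.0 FPKM in leaf control and 2229.55 in leaf drought (38.4-fold), at 86.3 in stem control and 18.2 in stem drought (4.75-fold lower), and at 843 in root control and 106 in root drought (7.97-fold lower). Leaf was the single tissue where AGA1 rose.

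NIP2-2 (GRMZM2G137108), an aquaporin of the group that includes the silicon channels, went in leaf from 10.7 to 50.5 FPKM, in stem from 173 to 29.6 and in root from 18.3 to 3.16. In2-1 (GRMZM2G042639), first described as induced by herbicide safeners, went in leaf from 3.59 to 18.5 FPKM and in stem from 17.7 to 2.90. In root, In2-1 was at 7.66 and 6.39 FPKM. The stem control value of both genes was above their leaf control value.

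The other genes of the first 12 carry identifiers alone. GRMZM2G551565 went in leaf from 8.43 to 75.7 FPKM, in stem from 16.8 to 2.29 and in root from 33.3 to 6.16. GRMZM2G436295 went in leaf from 1.70 to 11.8 FPKM, in stem from 39.8 to 6.77 and in root from 40.6 to 98.7. These genes share the leaf and stem directions and have opposite directions in root. GRMZM5G889229 went in leaf from 3.15 to 16.3 FPKM and in stem from 26.8 to 0.646 (41.5-fold lower), and was at 1.90 in root control and listed at 0 in root drought. GRMZM2G173597 went in leaf from 7.28 to 44.4 FPKM, in stem from 10.02 to 1.49 and in root from 54.8 to 23.7. GRMZM2G356839, GRMZM2G084369 and GRMZM2G136635 stayed under 2-fold in root, with changes of -0.69, -0.05 and -0.62. Among the first 12 genes, root therefore went in either direction or in none. After subtracting the median root change, the rises of GRMZM2G018820, GRMZM2G142891 and GRMZM2G436295 were 0.82, 0.83 and 0.96, all under the limit of 1.

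**Figure D2:**
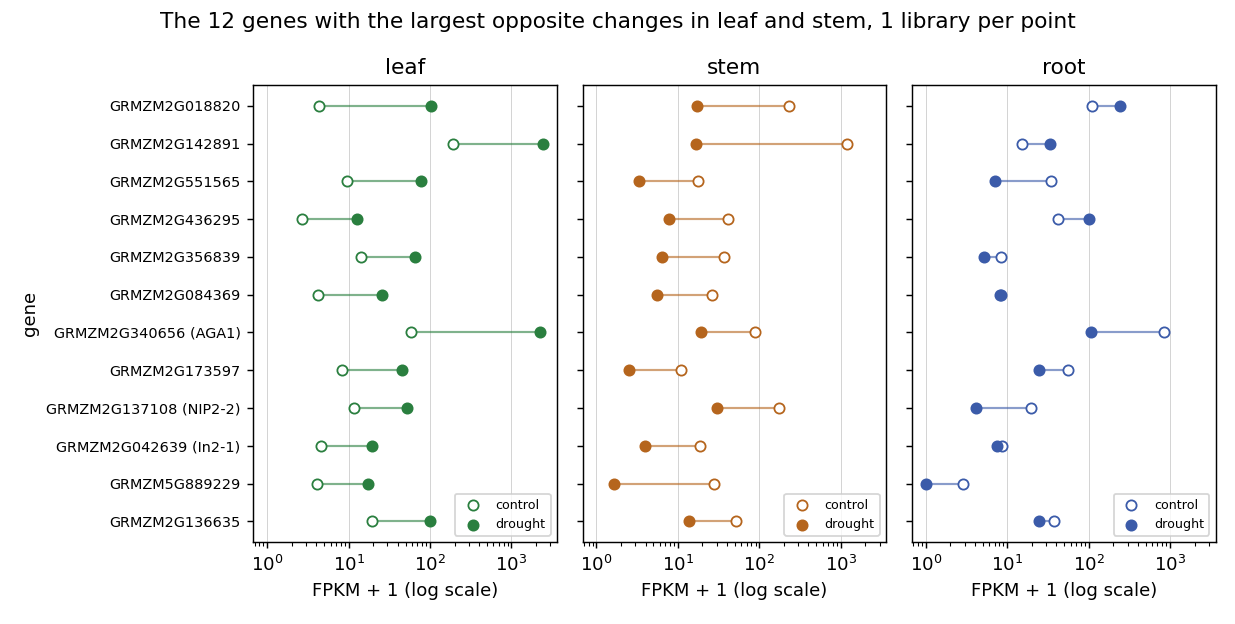
FPKM + 1 on a log axis for the 12 genes with the largest opposite changes, with 1 panel per tissue; open circles are control libraries, filled circles drought libraries, 1 library per point. Every filled circle lies to the right in leaf and to the left in stem, as the rule requires. In root GRMZM2G018820, GRMZM2G142891 and GRMZM2G436295 rise, and AGA1 is among the genes that fall, from 843 to 106 FPKM.

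Some of the 107 genes were among the abundant transcripts. GRMZM2G123896 was at 1610.0 FPKM in leaf control and 3985.6 in leaf drought, at 894 and 320.2 in stem, and at 1893 and 1664 in root. Its root values differed far less than those of the shoot. GRMZM2G027479 was a stem transcript, at 1006 FPKM in stem control and 383 in stem drought, against 6.99 and 43.1 in leaf and 1.25 and 0.294 in root. GRMZM2G364601 went in stem from 394 to 9.97 FPKM (39.5-fold lower), from 103 to 225 in leaf and in root from 565 to 72.6. AC194022.3_FG013 went in leaf from 242 to 731 FPKM and in stem from 198 to 54.3, and was at 487 and 439.7 in root. GRMZM2G044132 went in leaf from 55.4 to 188.5 FPKM and in stem from 258 to 94.0, with 68.0 and 129.9 in root. None of these 5 genes has a name in the reference.

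Of the 107 genes, 67 were found in the RefSeq annotation of maize and 16 have a name there or in the study, while the other 91 are known here by identifier. The named genes are described by role. Names say what a protein is related to, and counts over them cover only this named share.

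A pair of the named genes are kinases of MAPK cascades. ZmMKK10-2 (GRMZM2G344388), a MAPK kinase, was at 10.99 FPKM in leaf control and 36.1 in leaf drought, at 12.4 and 3.28 in stem, and at 27.9 and 57.8 in root. ZmMPK3-1 (GRMZM2G053987; MPK4 in RefSeq), a MAPK, was at 16.3 and 52.1 FPKM in leaf, at 26.1 and 6.22 in stem, and at 53.5 and 132 in root. The changes of these kinases were 1.63 and 1.62 in leaf, -1.65 and -1.91 in stem, and 1.02 and 1.29 in root. The rule limits their leaf and stem values. The paper, citing earlier work, states that these kinases do not interact with each other. After subtracting the median root change, the root values were 0.72 and 0.98, both under the limit of 1.

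Of 8 genes that the symbol list of the MAPK cascade brought through the filter, ZmMPK3-1 was the only one to rise in leaf and the only one to fall in stem. The list also took in Med13, a Mediator subunit and no kinase, and it missed ZmMKK10-2, which RefSeq leaves without a name. Of the 71 MAPKKK genes of the study, 66 were matched by identifier and 20 passed the filter. Among these 20, 1 rose in leaf, 3 fell in stem and none did both, counts too small to set apart from the 5.64%, 7.54% and 0.986% of all genes.

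The transcription factors among the 16 named genes were NAC1, HB128, bZip112 and the zinc finger gene zfp30. NAC1 (GRMZM2G014653) was at 23.6 and 68.5 FPKM in leaf control and drought, at 10.01 and 2.29 in stem, and at 25.3 and 37.0 in root. HB128 (GRMZM2G041462), a homeobox gene, was at 3.44 and 10.4 FPKM in leaf, at 16.6 and 4.42 in stem, and at 40.6 and 33.8 in root. Root thus showed under 2-fold change for both factors. bZip112 (GRMZM2G103647), a basic leucine zipper gene, was at 28.5 and 140.4 FPKM in leaf, at 16.7 and 6.87 in stem, and at 6.84 and 55.2 in root. It rose 8.08-fold in root and ranked among the 4 largest root rises of the group. zfp30 (GRMZM2G116079) was at 19.9 and 73.2 FPKM in leaf, at 45.9 and 7.46 in stem, and at 18.2 and 29.0 in root.

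Other members of these families were read against all genes, of which 5.64% rose in leaf and 7.54% fell in stem. Of 6 NAC genes passing the filter, 3 rose in leaf and 1, NAC1, fell in stem. SNAC1 (GRMZM2G347043), a stress NAC gene that RefSeq also calls NAC1, rose from 46.6 to 259 FPKM in leaf but was at 50.7 and 44.0 in stem. Of 11 bZIP genes, 2 rose in leaf and 4 fell in stem, and of 11 homeobox genes 1 rose in leaf and 2 fell in stem.

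Several of the named enzymes act on sugars, amino acids or the carbon they share. sus2 (GRMZM2G318780), a sucrose synthase, was at 13.3 FPKM in leaf control and 56.2 in leaf drought, at 24.9 and 8.73 in stem, and at 237 and 25.9 in root (9.16-fold lower). The related genes behaved otherwise. sus1 (GRMZM2G152908) was at 47.0 and 57.6 FPKM in leaf, at 244.7 and 238 in stem, and rose from 259.95 to 1634 in root, while sh1 (GRMZM2G089713), another sucrose synthase, rose from 96.9 to 264 FPKM in leaf and was at 52.2 and 34.4 in stem and at 192 and 335 in root. The list of sugar and starch symbols, which does not hold AGA1, brought 9 genes through the filter. Of these, sus2 was the one that rose in leaf and fell in stem, as 0.986% of all genes did. How the authors' counting split reads between related genes is not known.

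lkrsdh1 (GRMZM2G181362), the bifunctional first enzyme of lysine breakdown, was at 41.0 and 128 FPKM in leaf, at 28.5 and 10.7 in stem, and at 61.0 and 28.8 in root. PPCK1 (GRMZM2G178074), the kinase that phosphorylates phosphoenolpyruvate carboxylase, was at 8.21 and 18.4 FPKM in leaf, at 13.1 and 0.544 in stem (24.0-fold lower), and at 3.62 and 2.38 in root. fdx3 (GRMZM2G053458), a ferredoxin of the non-photosynthetic type, was at 48.8 and 118 FPKM in leaf, at 162 and 58.1 in stem, and at 328 and 465 in root. AGA1, sus2 and lkrsdh1 thus fell in root as they did in stem, whereas PPCK1 and fdx3 changed by less than 2-fold there.

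Among transporters, the phosphate transporter pht1 (GRMZM2G326707) was at 35.1 and 98.6 FPKM in leaf, at 105 and 35.4 in stem, and at 85.8 and 250.1 in root. MFSP (GRMZM2G066801), named as a member of the major facilitator superfamily, was at 40.9 and 137 FPKM in leaf, at 61.9 and 25.1 in stem, and at 118 and 54.4 in root. pht1 rose in root and MFSP fell. The channel NIP2-2 described above differed from its relatives in leaf: NIP2-1 (GRMZM2G028325; Lsi1) went from 45.0 to 21.9 FPKM and NIP2-3 (GRMZM2G081239; Lsi6) from 32.4 to 10.3. In stem all 3 fell, NIP2-1 from 53.3 to 12.5 FPKM and NIP2-3 from 65.8 to 25.6. Of 22 transporter genes passing the filter, 3 rose in leaf and 7 fell in stem, and NIP2-2 and pht1 did both. Among all genes these shares were 5.64%, 7.54% and 0.986%, and the difference was not tested. The last named gene, m21 (GRMZM5G814279), was at 0.949 and 16.4 FPKM in leaf, at 35.01 and 16.5 in stem, and at 10.4 and 5.85 in root.

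**Figure D3:**
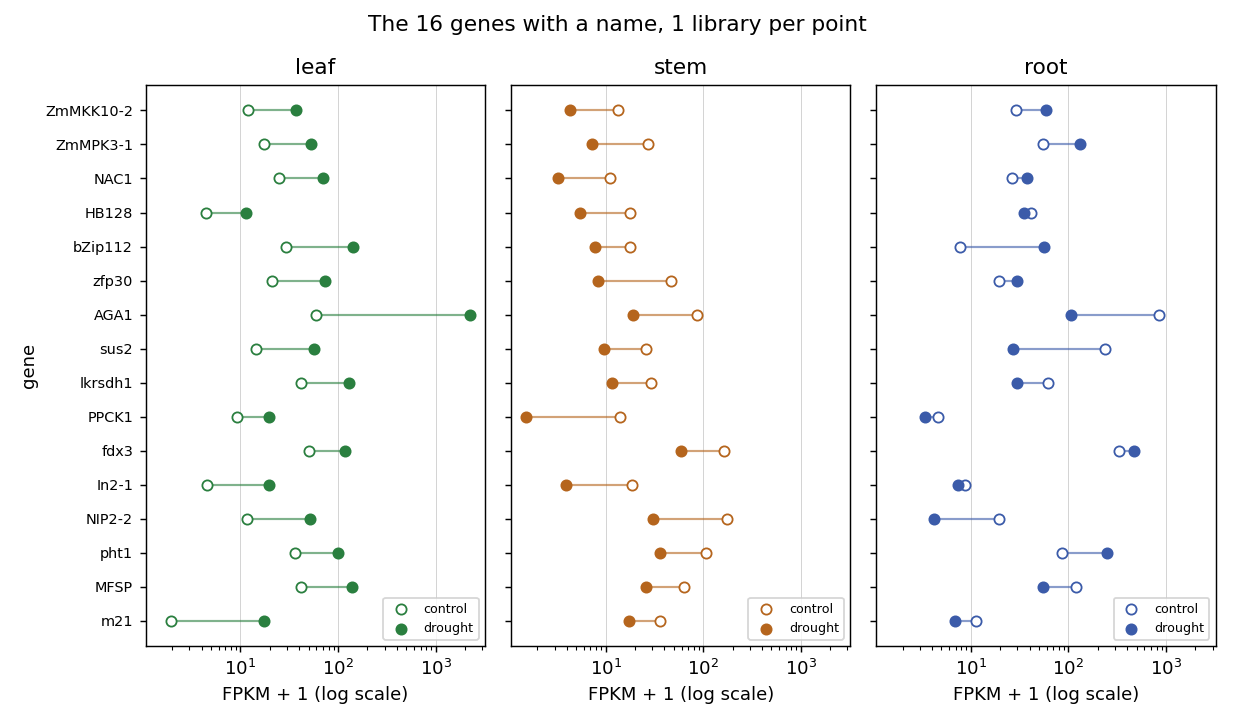
FPKM + 1 on a log axis for the 16 named genes, with 1 panel per tissue. The order is kinases of MAPK cascades, transcription factors, enzymes followed by fdx3 and In2-1, transporters, and last m21, whose role is not given here. Open circles are control and filled circles drought libraries, 1 library per point. In root, bZip112 lies furthest to the right of its control and sus2 and AGA1 furthest to the left.

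In all, 29 lists of genes by symbol or identifier held 316 genes that passed the filter, and 8 of these were among the 107 (2.53%, against 0.986% of all genes), from 7 of the lists. The other 22 lists held none, and at 0.986% a list of this size would hold few or none in any case. Apart from the MAPKKK genes, which were matched by identifier, genes without a symbol could not enter these lists. The lists were also chosen with earlier results of these data known, so nothing is read from 2.53% against 0.986%.

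Root was not used to choose the genes and is the one measure independent of the rule. Of the 107 genes, 21 rose in root (19.6%), 23 fell (21.5%) and 63 changed by less than 2-fold. Among all 10850 genes, 20.03% rose and 5.53% fell in root. In this setting the share of rises was thus near the background, and the share of falls was well above it. Under other settings given at the end, the share of rises lay above or below the background. The median root change of the 107 genes was 0.00 against 0.31 for all genes. With 1 library per treatment, neither difference could be tested.

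Because the middle gene of root lay at 0.31, the counts were repeated with this median subtracted. Then 12 of the 107 genes rose (11.2%) and 28 fell (26.2%), against 12.5% and 9.44% of all genes. The direction of the difference was the same, and the gap in falls was smaller relative to the background. With the filter of 10 FPKM also required in root, 89 of the genes remained, of which 21 rose and 21 fell (23.6% each), against 22.8% and 5.40% of 8993 genes.

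Other classes of leaf and stem change had fewer falls in root. They were 5.03% of the 159 genes that fell in leaf and rose in stem, 10.3% of the 78 genes that rose in both, and 10.1% of the 159 genes that fell in both. For genes that rose in leaf but changed by less than 2-fold in stem the share was 9.60% of 427. For genes that fell in stem but changed by less than 2-fold in leaf it was 9.06% of 552. The shares of root rises in these 5 classes lay between 23.0% and 50.0%, all above the 19.6% of the 107 genes. The classes are of different size and level, and their difference was not tested.

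**Figure D4:**
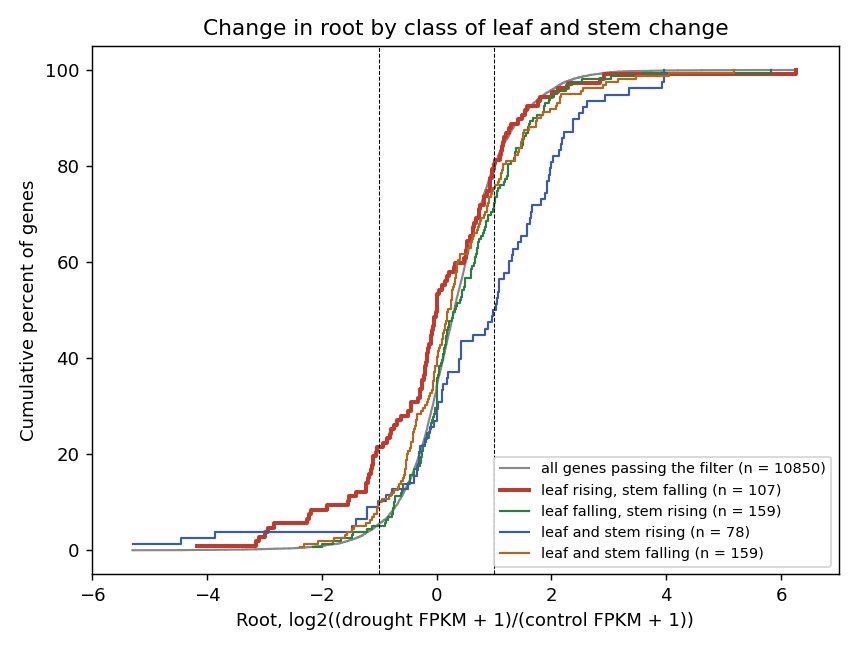
Cumulative percent of genes (y axis) against the root change, log2((drought FPKM + 1)/(control FPKM + 1)) (x axis), for the 107 genes (thick red line), all 10850 genes passing the filter and the 3 other classes changing at least 2-fold in leaf and stem; dashed lines mark -1 and 1. At -1 the red line stands at 21.5% and the grey line of all genes at 5.53%.

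The genes that fell in root were abundant in well-watered root. The 23 had a median of 113 FPKM in root control and 28.8 in root drought, and root control was the highest of the 6 libraries for 10 of them. For the 21 genes that rose in root these medians were 30.2 and 98.7 FPKM, and root control was the highest library for none. Median changes in leaf and stem were 1.72 and -1.44 for the genes falling in root and 1.63 and -1.41 for those rising. A higher control level is part of what makes a fall, so these levels are a description.

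The largest fall in root was that of GRMZM2G059836. It was at 691 FPKM in root control and 37.3 in root drought (18.5-fold lower), at 179 and 709.5 in leaf and at 36.1 and 12.1 in stem. sus2 was second. GRMZM2G063162 was the third, at 1096 and 128 FPKM in root, at 272 and 595 in leaf and at 164 and 34.2 in stem, and AGA1 was the fourth. For GRMZM2G059836 and AGA1 the highest value of any library was in droughted leaf, and for sus2 and GRMZM2G063162 it was in well-watered root.

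The largest rise in root was that of GRMZM5G853055, at 0.645 FPKM in root control and 124.7 in root drought, a 193-fold ratio over a control value under 1 FPKM. In leaf it was at 0.921 and 13.5 FPKM and in stem at 15.7 and 6.42. GRMZM2G061723 followed with 6.33 and 54.4 FPKM in root, 10.3 and 57.8 in leaf and 12.8 and 5.42 in stem. After bZip112 came GRMZM2G163054 with 30.2 and 152 FPKM in root, 17.0 and 66.2 in leaf and 13.1 and 4.30 in stem. In these 4 genes the leaf and root libraries moved together and stem moved the other way.

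**Figure D5:**
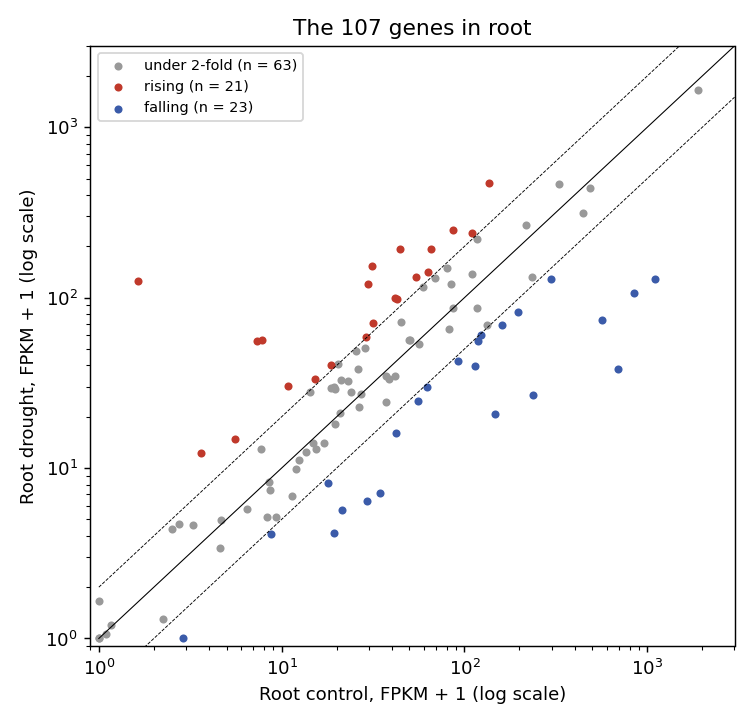
Root control (x axis) and root drought (y axis), both as FPKM + 1 on log axes, for each of the 107 genes, with the line of equality and dashed lines at 2-fold. The 23 falling genes lie mostly to the right, at a median of 113 FPKM in root control, and the single red point at the upper left is GRMZM5G853055.

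A few of the 107 genes were almost silent in root. In 5 genes both root libraries were under 1 FPKM, and 4 genes were listed at 0 in at least 1 root library. The matching shares of all genes passing the filter were not computed, so nothing is read from these counts. Across the 107 genes, the root change had a Spearman's rho of -0.04 and a Pearson's r of -0.04 with the leaf change, and 0.09 and 0.11 with the stem change. These are descriptions over genes of the same libraries, with leaf and stem cut off by the rule.

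Levels were also set side by side across the 3 tables, which were made separately. In control, 85 of the 107 genes were higher in stem than in leaf, against 30.8% of all genes passing the filter. In drought, 102 were higher in leaf than in stem, against 61.7%. For 80 genes both held, so that the order of the tissues was exchanged, against 13.7%. The rule pushes genes towards this exchange, and nothing is read from these shares. The highest of the 6 values was in leaf drought for 43 genes, in root drought for 29, in root control for 19 and in stem control for 16. Among all genes passing the filter these shares were 15.5%, 34.7%, 8.96% and 6.71%. The lowest value was in stem drought for 54 genes and in leaf control for 33, and the share for all genes was not computed. By the rule, no gene could be highest in leaf control or stem drought, or lowest in leaf drought or stem control. Nothing is read from these counts either.

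Among the 67 genes found in RefSeq, a single pair lay within 10 genes of each other in the gene order of the B73 assembly Zm-B73-REFERENCE-NAM-5.0. They were GRMZM2G010460 and GRMZM2G123558. GRMZM2G010460 was at 21.2 and 79.0 FPKM in leaf and at 10.4 and 3.75 in stem, and GRMZM2G123558 at 57.6 and 177 in leaf and at 246 and 93.6 in stem. How many such pairs as many genes taken at random would hold was not computed, so nothing is read from this pair. Genes not found in RefSeq have no place in this order.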

How the data were processed

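RNA-seq values were taken from 3 deposited tables, 1 per tissue, each giving 109715 genes under control and drought. The authors mapped reads to the maize B73 genome with TopHat and obtained FPKM with Cufflinks and Cuffdiff; versions and the genome release are not given in the sources used here. That each table was normalized within its pair of libraries is inferred from the separate tables. A column of log2 ratios in each table holds the authors' own comparison and was not used. Methods state 2 replications per treatment, whereas 1 library per tissue and treatment was analysed here.

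Log2 changes were computed with 1 FPKM added to both values, which shrinks the change of low genes. With 1 library per group no p-value was computed. The genes and lists were chosen with earlier results of these data known. Genes named are the 12 with the largest smaller change, the 5 highest in stem control and in leaf drought, the 4 largest root rises and falls, those with a name or on a list, and those at the limits. The relatives of named genes (SNAC1, sus1, sh1, NIP2-1 and NIP2-3), the genes with the largest plain ratios in leaf and stem and the neighbouring pair fall outside this rule and were chosen after their values were seen. Names came from RefSeq, which matched 18778 genes (17.1%) and belongs to a later assembly, so no position is given. Promoter motifs had been planned and were not analysed here, because no promoter sequence was at hand. The code of the rule was run on simulated data with planted changes past its limits. Their recovery was fixed by construction, so this run says nothing about noise between libraries. Alternatives changed the added value, the filter, the limit and the centring. Tables were read with pandas 2.3.3 and numpy 2.4.6 under Python 3.11.15, correlations came from scipy 1.17.1 and plots from matplotlib 3.10.9.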

Additional observations from a re-analysis of the deposited data

Results flagged for a closer look

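All 107 genes changed in opposite directions in leaf and stem, which the rule fixes, and the difference between the tissues was not tested. Of them, 23 rose in leaf and fell in root, and this difference was not tested either, since each tissue has 1 library per treatment.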

How the results depend on the processing

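The number of genes depended on the added value, the filter and the limit, and it was within 1.5 times of 107 with 0.1 FPKM added (123) and after centring each tissue on its median (141). With 5 FPKM added, 62 genes were left, of which 7 rose and 14 fell in root with a median root change of -0.0530. With at least 5 FPKM there were 173 genes, 41 rising and 33 falling in root, median 0.0492. With at least 20 FPKM there were 48 genes, 7 rising and 13 falling, median -0.0724. Without a filter there were 324 genes, 93 rising and 50 falling, median 0.0664. With a limit of 1.5 in all tissues there were 37 genes, 0 rising and 6 falling in root (16.2%, against 2.13% of all genes), median -0.0806. With 0.1 FPKM added, 34 rose and 26 fell, median 0.00450. After centring, 22 rose and 34 fell in root, median -0.29, so rises were 39.3% of the root changes in place of 47.7%. With the filter also in root, an alternative chosen after seeing the data, the median was 0.00445. In each of these settings the share of root falls was above that of all genes passing the same filter, the lowest being 15.4% against 2.41% without a filter, where the background holds silent genes. The share of root rises lay above that of all genes in some settings (27.6% against 22.2% with 0.1 FPKM added, 23.7% against 19.0% with at least 5 FPKM). It lay below that of all genes in others (11.3% against 15.4% with 5 FPKM added, 0% against 9.39% with a limit of 1.5). Rises were between 0% and 65.0% of the root changes. The 35 named genes kept the sign of every change under the other added values and centring (315 changes), and 19 of these crossed the 2-fold limit. Leaving out a library was not possible with 1 library per group. No paired analysis was possible because no group has a second library. The alternatives for promoter motifs were not run. The tables hold no read counts, so no counting error is given for low values such as 0.145 FPKM.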
